A study of Sus scrofa domesticus with 4 samples.

Results

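The genes described here are 8 porcine enzymes and transport proteins of steroid hormone synthesis and metabolism: STAR, CYP11A1, HSD3B1, CYP17A1, HSD17B7, HSD17B4, SULT2A1 and SULT1E1. They were chosen by name, and each RefSeq identifier listed for an array probe was matched to a pig gene symbol. All 8 were on the array, with 20 probes among 43603, and they are 8 of 3029 genes that could be named.

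The endometrium came from 4 Large White x Polish Landrace gilts aged 7 to 8 months, on days 15 to 16 of gestation. Slices of it were precultured for 2 h in medium 199. They were then cultured for 24 h with orexin A (OXA) or without it. The OXA dose was 10 nM in the sample labels and 10 µM in the design text of the series. RNA of OXA-treated tissue and RNA of untreated control tissue were hybridised together on each of 4 two-colour arrays, so the log2 ratio of OXA over control within an array is the unit of replication (n = 4). The single samples' labels give Cy5 as the dye of OXA for arrays 1 and 3, and Cy3 for arrays 2 and 4. In the labelling protocol OXA has Cy5 throughout. The deposited value table has its sign turned against Cy5 over Cy3 on arrays 2 and 4, as the single samples' labels have it. The labels leave out whether the OXA and control RNA of an array share a gilt, so p-values measure the spread between these arrays. The slices held whatever mixture of cells the pieces contained, and fewer cells of a type and less RNA per cell cannot be told apart.

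Steroid hormones are made from cholesterol. STAR carries cholesterol into the mitochondrion, CYP11A1 cleaves its side chain to pregnenolone, HSD3B1 turns pregnenolone into progesterone, and CYP17A1 opens the route to androgens. 17-beta-hydroxysteroid dehydrogenases interconvert stronger and weaker oestrogens and androgens, and sulfotransferases attach a sulfate that stops a steroid from binding its receptor. In early pregnancy the pig conceptus releases oestrogens and the corpora lutea release progesterone, and the endometrium both responds to these steroids and metabolises them.

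The members fell into a brightly detected group and a group at or near background. A reading here is 1 probe in 1 dye on 1 array, so each probe had 8 readings. HSD17B7 (1 probe), HSD17B4 (3 probes) and SULT2A1 (2 probes) were well above background in every reading, which made 6 of the 20 probes. The other 5 genes were STAR, CYP11A1, HSD3B1, CYP17A1 and SULT1E1. STAR had 10 of 48 readings well above background over 6 probes, and CYP11A1 had 14 of 24 over 3 probes. HSD3B1 had 7 of 16 over 2 probes, all of them from 1 probe. The 2 probes of CYP17A1 gave 2 of 16 readings, and the single SULT1E1 probe, for the oestrogen sulfotransferase, gave 3 of 8. A level for these genes therefore rests on few readings, and a probe was tested only with at least 4 readings well above background.

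Detection split by dye and not by treatment. Over all 20 probes 54 of 80 Cy5 readings and 30 of 80 Cy3 readings were well above background. By treatment it was 43 of 80 readings with OXA and 41 of 80 in controls. All 10 STAR readings, both CYP17A1 readings and all 3 SULT1E1 readings that passed were in Cy5. Of the readings that passed, STAR had 5 with OXA and 5 in controls, CYP11A1 had 8 with OXA and 6 in controls, HSD3B1 had 4 and 3, CYP17A1 had 1 and 1, and SULT1E1 had 1 and 2, each with OXA first. No member was detected with one treatment only.

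**Figure D1:**
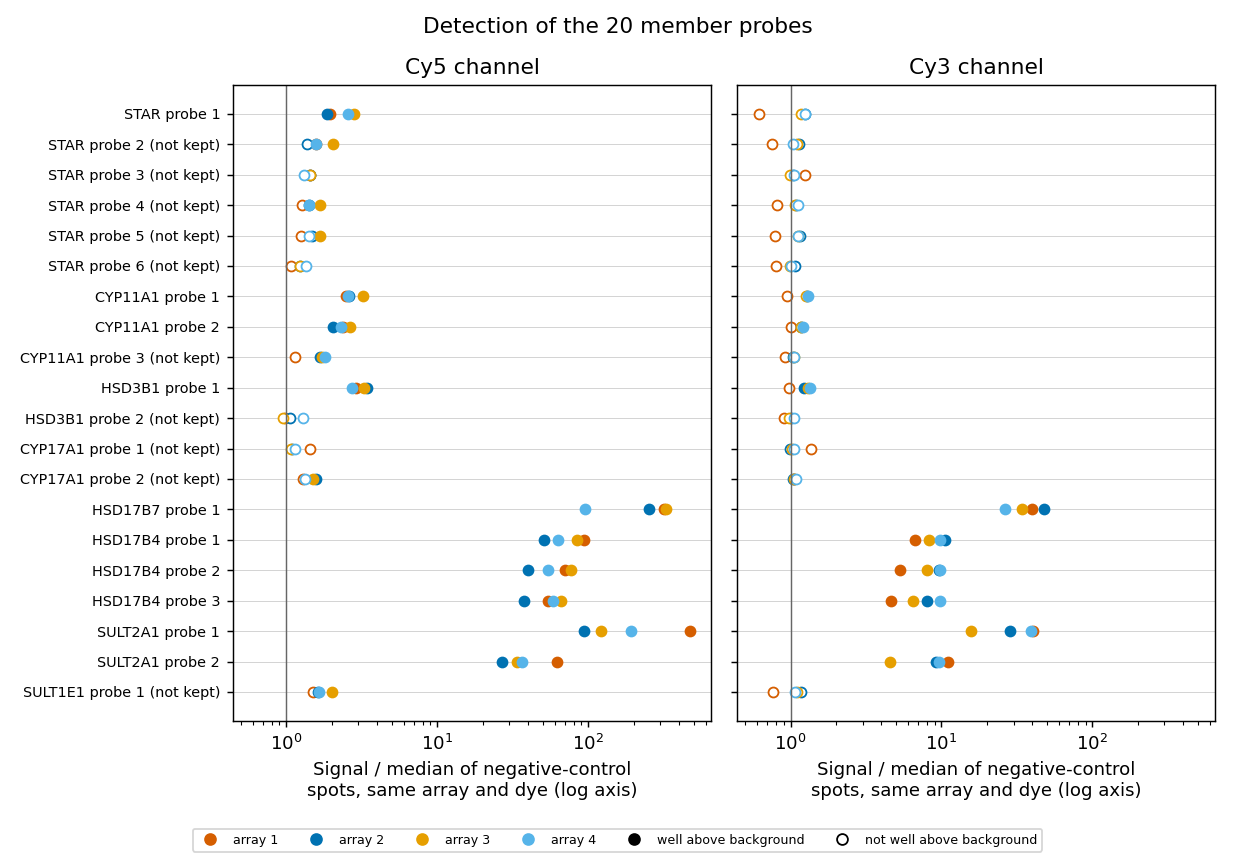
Signal of each of the 20 probes divided by the median of the negative-control spots of the same array and dye (log axis), Cy5 on the left and Cy3 on the right. Points are single arrays, filled where the spot was marked well above background. HSD17B7, HSD17B4 and SULT2A1 are filled in all 8 readings, while STAR, CYP17A1 and SULT1E1 are filled in Cy5 only.

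The slides set the limits for the dim genes. The negative-control spots had a Cy3 median of 251 on array 1 and 154 to 166 on arrays 2 to 4, against 68 to 74 in Cy5 on all 4 arrays. In Cy3 31.7% of probes were well above background on array 1 and 52.1% to 56.7% on the others, and in Cy5 it was 62.4% to 74.5%. Array 1 was on a slide and in a scan of its own. No spot reached saturation, and precision is limited by having only 4 arrays. Of the 26891 probes tested, 0 passed an adjusted p of 0.05 in limma (0%). At an unadjusted p under 0.05, 1760 probes passed (6.54%), all with a fold of at least 1.2, of which 1130 were higher with OXA (4.2%) and 630 lower (2.34%). With median centring in place of loess 2559 were higher and 395 lower, and the median of all probes was 0.03 under both.

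STAR, the cholesterol carrier that starts steroid synthesis, had 1 tested probe. Its normalized log2 level with OXA was 7.15, 7.11, 7.21 and 7.18 on arrays 1 to 4. In controls it was 5.60, 7.01, 7.16 and 7.37. The OXA levels had an SD of only 0.05 on the log2 scale. The control on array 1 lay far below the other 7 values, while the remaining levels of both groups overlapped. The log2 ratios were 1.55, 0.09, 0.05 and -0.19, with a mean of 0.38 (SE 0.25, 95% interval -0.18 to 0.93), and limma gave an adjusted p of 0.723. Without array 1 the fitted value was 0.0024. The control on array 1 was in Cy3, with a raw intensity of 155, below the median of 251 of the negative-control spots there. That probe was not marked well above background in any Cy3 reading, so on each array 1 of the 2 levels that make its ratio was not well above background. The other 5 STAR probes had 0 to 3 readings that passed and were not tested, and their mean log2 ratios ran from -0.18 to 0.14.

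CYP11A1, the side-chain cleavage enzyme that makes pregnenolone, had 2 tested probes. The brighter one had log2 levels of 7.35, 7.26, 7.38 and 7.31 with OXA, against 6.73, 7.42, 7.37 and 7.31 in controls. Again the control on array 1 was the lowest value, and the others overlapped. The log2 ratios were 0.63, -0.16, 0.0031 and -0.0012, the mean was 0.12 (SE 0.18, interval -0.30 to 0.53), and the adjusted p in limma was 0.878. The fitted value without array 1 was -0.04. The other tested probe gave 0.40, -0.16, -0.04 and -0.11 with a mean of 0.02, so both probes were above 0 on array 1 and below 0 on array 2. The third probe had 3 readings that passed and a mean ratio of -0.22.

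HSD3B1, which makes progesterone from pregnenolone, had 1 tested probe with 7 readings that passed. Its log2 level was 7.53, 7.18, 7.36 and 7.44 with OXA, against 6.54, 7.80, 7.44 and 7.34 in controls. The OXA levels lay inside the range of the controls, which held both the lowest value (array 1) and the highest (array 2). The log2 ratios were 0.98, -0.62, -0.09 and 0.10, with a mean of 0.10 (SE 0.23, interval -0.42 to 0.61) and an adjusted p of 0.925 in limma. Leaving out array 1 turned the fitted value to -0.17, and leaving out array 4 turned it to -0.09. Its second probe was not well above background in any reading.

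In these 4 dim tested probes array 1 gave the highest ratio, and its control was in Cy3. The Cy3 intensities there were 155 for STAR, 237 and 252.5 for CYP11A1, and 247 for HSD3B1. All 4 lay below 375, the 95th percentile of the negative-control spots in Cy3 on that array. On arrays 2 to 4 the same probes lay at 180 to 224.5 in Cy3, each above the 95th percentile on its array (169 to 180). The array 1 values of STAR, CYP11A1 and HSD3B1 therefore compare an OXA level with a control reading inside the range of blank spots.

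For CYP17A1, the 17-alpha-hydroxylase of androgen synthesis, and SULT1E1, which sulfates oestrogens, no fold is given. Each of their probes had at most 3 readings that passed. Intensities of the CYP17A1 probes were 74 to 109 in Cy5 and 152 to 343 in Cy3. Intensities of SULT1E1 were 102 to 138.5 in Cy5 and 175.5 to 193 in Cy3. On array 1 the SULT1E1 reading in Cy3 (193) was below the median of the negative-control spots. By the 95th percentile of the negative-control spots SULT1E1 was above in 6 of 8 readings, all 4 in Cy5 and 2 in Cy3, and counting genes that way gave 7 measured members in place of 6. Low readings do not show that these genes were absent.

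HSD17B7, which reduces oestrone to oestradiol and also takes part in cholesterol synthesis, was bright in every reading. Its log2 level was 13.88, 13.55, 13.32 and 12.83 with OXA on arrays 1 to 4. In controls it was 13.90, 13.08, 13.41 and 12.27. The groups overlapped, and array 4 was the lowest of both. The log2 ratios were -0.02, 0.47, -0.09 and 0.56, with a mean of 0.23 (SE 0.17, interval -0.15 to 0.61, a fold of 1.17). The adjusted p in limma was 0.742. The ratios split by dye order: the mean was -0.06 where OXA was in Cy5 and 0.51 where it was in Cy3. The dye coefficient of the fit was -0.28. If OXA is read as Cy5 throughout, as the labelling protocol has it, the fitted value is this same coefficient, -0.28. The direction of HSD17B7 thus differs between the descriptions of the dyes, and the deposited value table follows the single samples' labels.

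HSD17B4, a peroxisomal enzyme that oxidises oestradiol to oestrone and also works in fatty acid breakdown, had 3 probes that were bright in every reading. For the brightest the log2 level with OXA was 12.14, 11.25, 11.42 and 11.29. In controls it was 11.22, 11.05, 11.14 and 11.67. Array 1 with OXA was the highest value and array 4 in controls the next, so the groups overlapped. The other OXA levels were 11.25 to 11.42 and the other controls 11.05 to 11.22, in part from different arrays. On array 4 itself OXA lay below its control. The log2 ratios were 0.91, 0.20, 0.28 and -0.39, with a mean of 0.25 (SE 0.20, interval -0.19 to 0.69, a fold of 1.19) and an adjusted p of 0.753 in limma. The second probe gave 0.83, 0.38, 0.21 and -0.18, with a mean of 0.31. The third gave 0.67, 0.15, 0.34 and -0.29, with a mean of 0.22. All 3 probes were above 0 on arrays 1 to 3 and below 0 on array 4, so the differences between arrays were repeated by separate probes of the gene. Without array 1 the fitted value was 0.09, without array 2 it was 0.10, without array 3 it was 0.41 and without array 4 it was 0.40.

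SULT2A1, the hydroxysteroid sulfotransferase that sulfates dehydroepiandrosterone and bile acids, had 2 probes that were bright in every reading. For the brighter the log2 level was 14.43, 12.75, 11.92 and 13.43 with OXA. In controls it was 13.93, 11.79, 12.14 and 13.25. Array 1 was highest and array 4 next in both groups, and the groups overlapped. The log2 ratios were 0.49, 0.96, -0.22 and 0.18, and the mean was 0.35 (SE 0.21, interval -0.12 to 0.83, a fold of 1.28). Among the members this was the lowest unadjusted p, 0.123, with an adjusted p of 0.696 in limma. The second probe gave -0.46, 0.85, 0.02 and 0.36, with a mean of 0.19. The probes took opposite signs on arrays 1 and 3, and both had their highest ratio on array 2. Without array 2 the fitted value was 0.16, and without array 1 it was 0.17. Without array 3 it was 0.53 and without array 4 it was 0.55. With OXA read as Cy5 throughout it was -0.22.

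**Figure D2:**
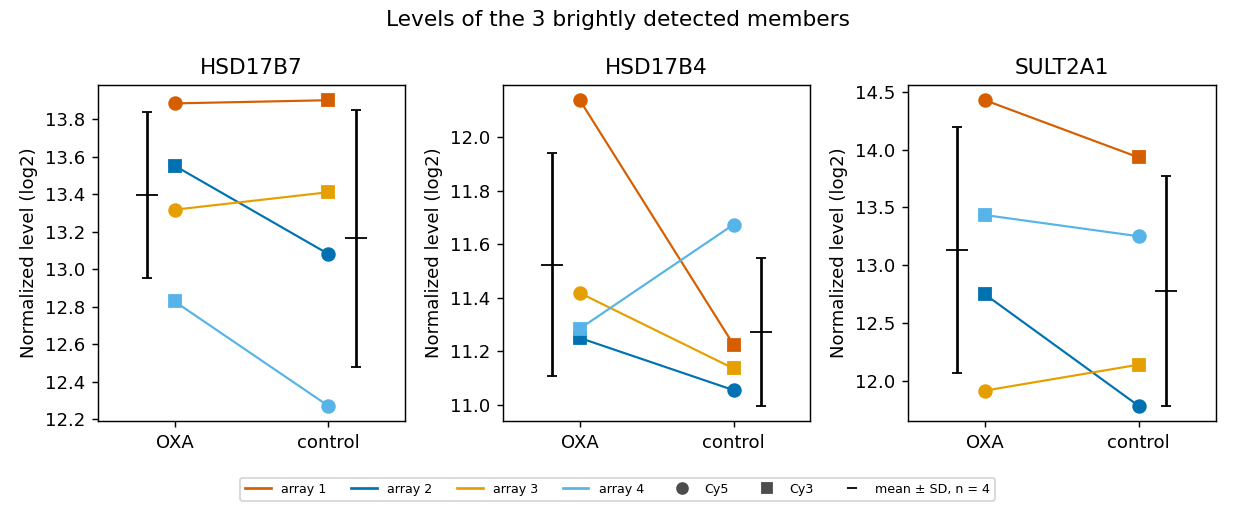
Normalized log2 levels of the brightest probe of HSD17B7, HSD17B4 and SULT2A1, with OXA on the left of each panel and control on the right. Lines join both RNAs of an array, circles are Cy5 and squares Cy3, and bars are the mean ± SD (n = 4). The groups overlap in each panel, and for SULT2A1 the arrays span 11.79 to 14.43.

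The level of SULT2A1 differed more between arrays than between treatments. With both RNAs of an array averaged, its brighter probe had log2 levels of 14.18, 12.27, 12.03 and 13.34 on arrays 1 to 4, a range of 2.15 or 4.44-fold. Among the 13588 tested probes with all 8 readings well above background, 98.3% had a smaller range, and their median was 0.66. The second probe also spanned 1.64, with array 1 highest. Within the slide of arrays 2 to 4 the range was 1.31, larger than in 94.2% of those probes, so it was not carried by array 1 alone. HSD17B7 spanned 1.34 over the 4 arrays (90.2% smaller) and 0.81 over arrays 2 to 4 (75.3% smaller). HSD17B4 spanned 0.53, 0.46 and 0.68 by probe, near that median. The labels do not say which gilt each array came from, so animal, piece of tissue and array cannot be told apart in these ranges.

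**Figure D3:**
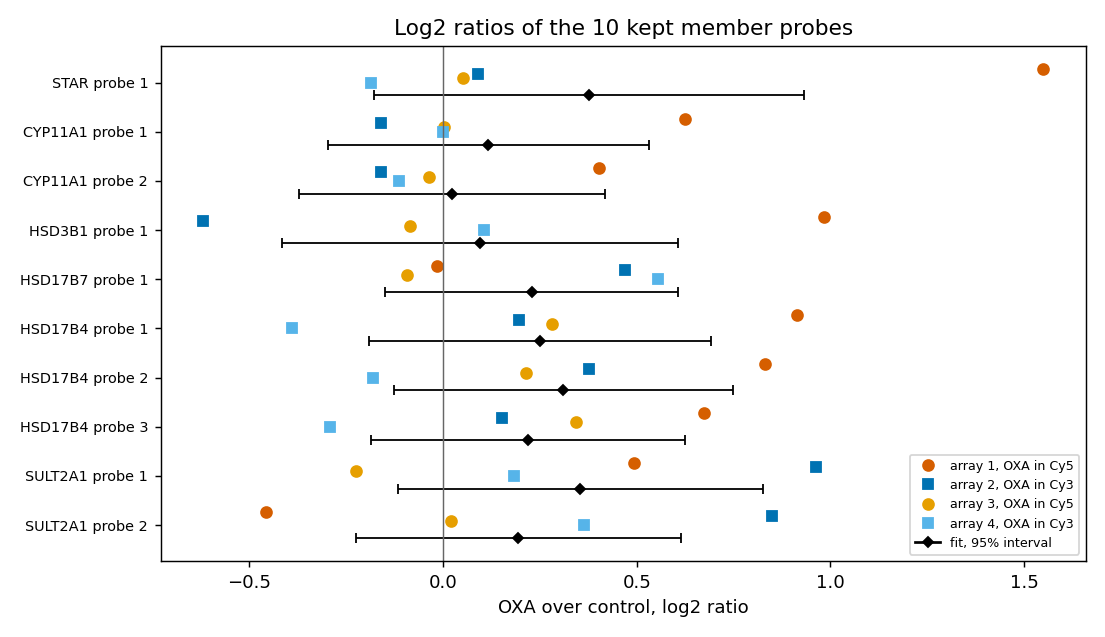
Log2 ratios of OXA over control for the 10 tested member probes. Circles are arrays with OXA in Cy5, squares arrays with OXA in Cy3, and diamonds the fitted values with 95% intervals, all of which cross 0. Array 1 lies highest for STAR, CYP11A1, HSD3B1 and HSD17B4, and the dye orders separate for HSD17B7.

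Across the members 0 of 6 measured genes passed the adjusted threshold, against 0 of all 26891 probes. None passed the looser rule in either direction, where 4.2% of all probes were higher and 2.34% lower, and 1.25% of named genes were higher and 5.24% lower. All 6 fitted values were above 0, against 54.5% of all probes tested and 40.1% of named genes, but 4 of 6 were with median centring or without array 1 (CYP11A1 and HSD3B1 below) and with OXA read as Cy5 throughout (HSD17B7 and SULT2A1 below). As reported, the members had a median of 0.24 against 0.03 for all probes. No member was above 0 on 4 of 4 arrays, which 7.15% of all probes and 3.45% of named genes were, and none had OXA levels that were all above control levels (0.837% of all probes). The array medians over the 6 genes were 0.77, 0.14, -0.04 and 0.05, so array 1 was the highest. On array 1 the 3 measured of 9 listed stromal fibroblast markers, all above 0 in the fit, had a median of 1.39, against -0.25 to 0.14 on the others. The 9 measured of 12 listed endometrial epithelium markers had a median of -0.42 on array 1 and 0.61 on array 4. Myeloid, T and NK, endothelium, smooth muscle and trophectoderm markers had medians of 0.43, 0.17, 0.64, 0.06 and 0.65 on array 1. On array 4 these medians were -1.80, -1.19, -0.45, -0.38 and -0.46. The summed stromal signal was 22721 to 75488 with OXA and 22096 to 58621 in controls, and the summed epithelial signal was 202980 to 295270 with OXA and 239000 to 400750 in controls. Their part in the result was not tested.

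Markers listed for luteal or adrenal cells were mostly at or near background, and those listed for trophectoderm ran from 0 to 8 of 8 readings well above background. Of 6 luteal or adrenal markers on the array, 2 were measured, LHCGR and INHA, with a summed signal of 291 to 344 with OXA and 204 to 312 in controls. INHA, an inhibin subunit, passed in 7 of 8 readings and had log2 ratios of 2.16, 0.07, 0.07 and 0.06. Its fitted value was 0.59 (SE 0.30), against 0.07 without array 1 and 0.28 with no background correction. NR5A1, which defines steroidogenic cells, had at most 3 of 8 readings well above background, and FSHR and INSL3 had 0. Of 8 trophectoderm markers on the array 5 were measured, with a summed signal of 2473 to 4380 with OXA and 1607 to 4505.5 in controls. TFAP2C, a trophectoderm transcription factor, and IL1B2, an interleukin of the pig conceptus, passed in 8 of 8 readings, and GATA3 in 7. The interferon genes IFNG and IFN-DELTA-1 passed in only 4 of 8 each. TFAP2C had log2 ratios of 1.43, 0.08, 0.91 and 0.72, with a fitted value of 0.78 (SE 0.19, p of 0.00281 and adjusted p of 0.69 in limma), and was higher by the looser rule. IL1B2 had -0.52, -0.75, 0.06 and -0.54, with a fitted value of -0.44 (SE 0.18, adjusted p of 0.69), and was lower by that rule. By it 4.2% of all probes were higher and 2.34% lower, and 1.25% of named genes were higher and 5.24% lower. TFAP2C and IL1B2 were named after their values were seen. Their part in the values of the members was not tested. CDX2 and the conceptus aromatase CYP19A3 had 0 readings, so this list does not show whether conceptus tissue was present. None of 5 erythroid markers could be matched to a probe.

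Of the other genes of steroid synthesis and metabolism, 26 of 64 listed symbols could be matched to a probe and 21 were measured. The fit put 9 above 0 and 12 below (11 above 0 with median centring), with a median of -0.0019, and 0 passed the adjusted threshold. Among synthesis genes 11 were measured, 5 above 0 and 6 below, and none passed the looser rule. The lowest unadjusted p values there belonged to STARD3, a late endosomal cholesterol carrier (-0.20, SE 0.17; its other probe 0.19), SRD5A2, a 5-alpha reductase (0.18, SE 0.18), and FDXR, which feeds electrons to mitochondrial P450 enzymes (0.17, SE 0.18). TSPO, an outer mitochondrial membrane protein, was -0.18 (SE 0.19), and HSD17B8, another 17-beta dehydrogenase, was -0.10 (SE 0.17). The aromatase CYP19A1 was well above background in 8 of 8 readings at 0.04 (SE 0.17). Pig aromatase genes are near-identical copies, and a probe may bind more than 1 of them.

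The inactivation and conjugation genes held the lowest unadjusted p values of the pathway. Of 10 measured, 4 were above 0 and 6 below, with a median of -0.03, and 3 passed the looser rule as lower, against 2.34% of all probes and 5.24% of the 2404 measured named genes. AKR1CL1, an aldo-keto reductase of the family that reduces progesterone and other ketosteroids, had log2 ratios of -2.09, -0.79, -0.09 and -1.43. Control was above OXA on 4 of 4 arrays, which held for 5.75% of all probes and 8.44% of named genes, but array 3 was near 0. The fitted value was -1.10 (SE 0.30, a p of 0.00522 in limma and an adjusted p of 0.69). All 3 of its probes were below 0, from -1.10 to -0.63. Without array 2 it passed the threshold, at -1.26 (adjusted p of 0.0435 in limma). That fit had 1 residual degree of freedom, and 63 of 26891 probes passed in it. AKR1CL1 was -0.60 without array 1 and 0.01 with OXA read as Cy5 throughout.

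The cytochromes CYP3A29 and CYP3A46, of a subfamily that hydroxylates steroids, were also below 0 on all 4 arrays. CYP3A29 had log2 ratios of -0.85, -0.33, -0.60 and -1.12, with a fitted value of -0.72 (SE 0.19, adjusted p of 0.69 in limma). Its 3 tested probes ran from -0.72 to 0.03. It was -1.55 by the Feature Extraction ratio, -0.15 with normexp parameters over all spots and 0.0010 with OXA read as Cy5 throughout. CYP3A46 had -0.02, -0.67, -0.06 and -0.87, with a fitted value of -0.41 (SE 0.17, adjusted p of 0.69), and its 3 tested probes were all below 0. These ratios split by dye order and were near 0 on arrays 1 and 3, where OXA was in Cy5. Under the same settings CYP3A46 was -0.78, -0.11 and 0.36. Genes of the AKR1C and CYP3A families are near-identical copies, so their probes may share signal and are not separate evidence. CYP1A1, which hydroxylates oestrogens, was 0.32 (SE 0.23), its arrays ranging from -0.86 (array 2) to 1.36 (array 1).

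**Figure D4:**
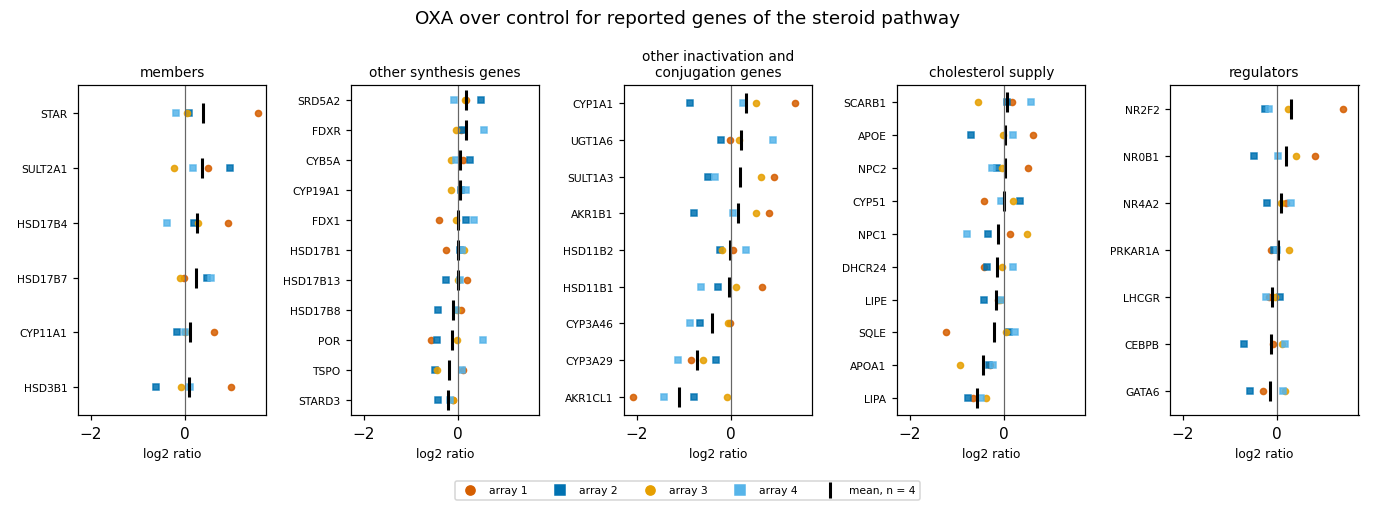
Log2 ratios of OXA over control for the reported genes of 5 groups. Points are arrays 1 to 4 and black ticks the mean. The 6 members have means above 0 (2 of them, CYP11A1 and HSD3B1, fall below it with median centring), and AKR1CL1, CYP3A29, CYP3A46, LIPA, APOA1, STARD3 and LIPE have all 4 points below 0.

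Cholesterol supply genes had 4 of 11 measured members above 0 and 7 below, with a median of -0.16, and 2 passed the looser rule as lower, against 2.34% of all probes and 5.24% of named genes. LIPA, the lysosomal acid lipase that frees cholesterol from its esters, had log2 ratios of -0.66, -0.76, -0.39 and -0.48, with a fitted value of -0.57 (SE 0.17, p of 0.00917, adjusted p of 0.69 in limma). It was -0.27 with normexp parameters over all spots and 0.048 with OXA read as Cy5 throughout. APOA1, the main protein of high-density lipoprotein, had -0.30, -0.32, -0.94 and -0.23, with -0.45 (SE 0.18) in the fit. SQLE, an enzyme of cholesterol synthesis, was -0.22 (SE 0.22) with 3 probes from -0.22 to 0.13, and LIPE, which hydrolyses cholesterol esters, was -0.18 (SE 0.17).

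Regulators of steroidogenic genes had 7 measured members, 4 above 0 and 3 below, with a median of 0.02. NR2F2, an orphan receptor of uterine stroma, was 0.30 (SE 0.22). Array 1 gave 1.40, the other arrays -0.26 to 0.23, and the fitted value without array 1 was 0.01. NR0B1, a repressor of steroidogenic genes, was 0.18 (SE 0.18). GATA6 and CEBPB, transcription factors that act on steroidogenic promoters, were -0.14 (SE 0.19) and -0.13 (SE 0.20). LHCGR, the luteinizing hormone receptor, was -0.10 (SE 0.17) with 4 readings that passed.

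The genes whose 4 ratios lay nearest to a member's were found among 2366 other named genes, by root mean square difference over the 4 arrays. For SULT2A1 they were RARS (0.105), DIRAS3 and RND3. For HSD17B4 they were TMEM33 (0.0652), DGKA (0.0685) and NPM2, and for HSD17B7 SRSF12 (0.122), UBE2K and ELAC2. Of the dim members, STAR lay nearest to SLC15A2 (0.115), TLR9 and UPK1B, CYP11A1 to ERH (0.0364), TAS1R3 and IGF2R, and HSD3B1 to FADS2 (0.136), ATAT1 and MAPKAPK3. With 4 arrays and so many genes, some lie this near to any pattern, and the match is a description.

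The way background was removed changed the dim members more than the bright ones. With normexp parameters taken over all spots, as limma does by default, spots with a marked local background enter the estimate. The ratios within 0.05 of 0 then made up 10.2%, 36.6%, 66.0% and 71.3% of tested probes on arrays 1 to 4, against 6.76%, 8.98%, 16.7% and 16.4% with marked background spots left out of the estimate. STAR was 0.14 in that setting, against 0.38 as reported and 0.35 in the log ratio of Agilent Feature Extraction, the scanner software. SULT2A1 was 0.39, HSD17B4 0.25 and HSD17B7 0.22 with parameters over all spots, close to 0.35, 0.25 and 0.23 as reported. No member passed the adjusted threshold under any of the settings tried, and the lowest adjusted p was 0.271, for STAR without array 3.

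**Figure D5:**
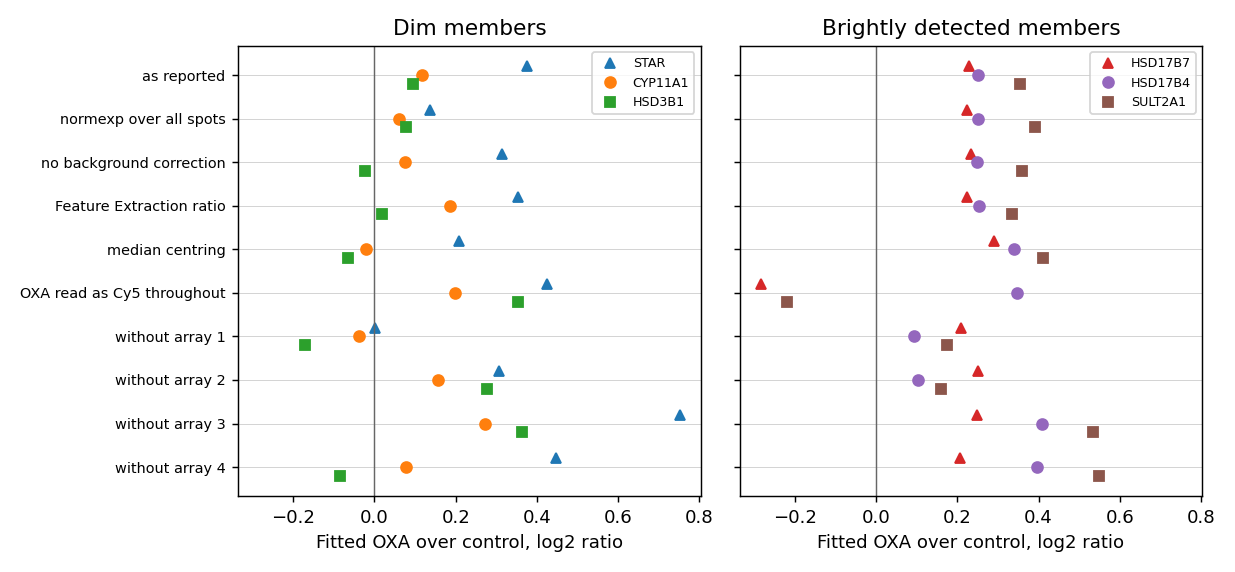
Fitted log2 ratio of OXA over control for the 6 measured members under each setting, the dim members STAR, CYP11A1 and HSD3B1 on the left and the bright members on the right. STAR runs from 0.0024 without array 1 to 0.75 without array 3, and HSD17B7 and SULT2A1 turn below 0 when OXA is read as Cy5 throughout.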

How the data were processed

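Per the file headers, the deposited scanner output of Agilent Feature Extraction 10.7.3.1 gives each spot's median intensity and that of its local background in both dyes. It also gives a log10 ratio of Cy5 over Cy3, per the file headers after background correction and dye normalization by the authors' software. Log2 ratios make up the deposited value table. Its columns were regressed on the scanner ratios (43295 probes) with slopes of 1.06, -1.00, 1.04 and -1.03 for arrays 1, 2, 3 and 4, so the scale is log2 and the direction OXA over control. The column medians were -0.17, 0.06, -0.06 and 0.09, and their centring stays unknown.

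Here normexp with an offset of 50 removed the background, loess normalized the ratios within arrays, and Aquantile scaled the levels between them. The normexp parameters were estimated without spots that carry a background-outlier mark in that dye (483 to 816 spots in Cy3, 3103 to 4602 in Cy5). That choice was made after the data were seen, because parameters over all spots gave corrected medians of 327 to 2575 on arrays 1 to 4. Spots marked as outliers or darker than their local background were left out. Probes well above background in at least 4 of 8 readings were tested, which left 26891, with 171 lost to left-out spots. Log2 ratios were fitted in limma 3.58.1 (R 4.3.3) with an OXA and a dye coefficient (2 residual degrees of freedom, 8.95 after moderation). P-values were adjusted by Benjamini-Hochberg over all tested probes, and intervals are 95%. A gene is represented by its tested probe of highest mean brightness, and where a single value is given for a gene it is that probe's.

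Names came from RefSeq accessions matched without versions to the Sscrofa11.1 gene table: 6700 of 7125 such probes matched, and 2404 genes were measured. The text names all members, the 5 measured genes with the lowest unadjusted p in each list, and the 3 genes nearest to each measured member by ratio. CYP19A1, TFAP2C, IL1B2, IFNG, IFN-DELTA-1 and INHA were named after their values were seen. Some genes counted in the lists are not reported here by name. The members and lists were chosen with earlier results of these data known. Alternatives were the other background corrections, the deposited ratios, median centring, no dye coefficient, other filters and weights, OXA read as Cy5 throughout, and leaving out each array.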

Additional observations from a re-analysis of the deposited data

Results flagged for a closer look

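In 5 of 43 sets of 4 array values, 1 array stood apart by Dixon's test, and chance alone marks about 1 in 20 such sets. The STAR probe was 1.55 on array 1, against -0.19 to 0.09 on the others. The median of the endothelium markers was 0.64 on array 1, against -0.51 to -0.45. SQLE, a cholesterol synthesis enzyme, was -1.23 on array 1, against 0.04 to 0.23. LIPE, which hydrolyses cholesterol esters, was -0.43 on array 2, against -0.12 to -0.06, and the lipoprotein APOA1 was -0.94 on array 3, against -0.32 to -0.23.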

How the results depend on the processing

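Among the 6 measured members, STAR, HSD17B4, HSD17B7 and SULT2A1 stayed above 0 under each change of background correction, scaling, filter or weights that gave them a value. CYP11A1 was -0.022 with median centring, and HSD3B1 was -0.065 with it and -0.022 with no background correction. STAR, CYP11A1 and HSD3B1 have no value where all 8 readings must be well above background, which leaves 3 genes in place of 6. With each array left out in turn STAR was 0.0024 to 0.75, CYP11A1 -0.039 to 0.27, HSD3B1 -0.17 to 0.36, HSD17B7 0.21 to 0.25, HSD17B4 0.092 to 0.41 and SULT2A1 0.16 to 0.55. The number of probes past an adjusted p of 0.05 was 0 to 638 in those fits (2 without array 1, 63 without array 2, 638 without array 4), none of them a member, with 1 residual degree of freedom each. The looser count, 1760 as reported, was 481 to 4093 there. It was 356 with normexp over all spots (177 higher, 179 lower), 2954 with median centring (2559 higher, 395 lower) and 826 among probes with all 8 readings (409 higher, 417 lower). With the labelling protocol's dyes, which the deposited value table does not follow, a gene's fitted value equals the dye coefficient of the reported fit. HSD17B7 then turned to -0.28 and SULT2A1 to -0.22. The dyes of the protocol also turned AKR1CL1 (0.0094), CYP3A29 (0.0010), CYP3A46 (0.36), IL1B2 (0.21), LIPA (0.048), LIPE (0.071), STARD3 (0.093), TSPO (0.017), FDXR (-0.16), SRD5A2 (-0.017), HSD17B8 (0.13), GATA6 (0.079) and CEBPB (0.14). Median centring turned HSD17B8 to 0.033, NR0B1 to -0.093 and SRD5A2 to -0.027, and the Feature Extraction ratio and the value table each turned LHCGR to 0.21. With arrays left out GATA6 was -0.32 to 0.033, CEBPB -0.35 to 0.083 and SQLE -0.53 to 0.10. Why these values moved was not tested. Arrays 2 to 4 share a slide, so leaving out array 1 is the fit within that slide. The ratio within an array already pairs OXA with control, and no further block was fitted. The dim members are limited by signal over background, and all members by 4 arrays.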

Other observations

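Markers of immune and vascular cells in the same explants leaned below 0. All 5 measured macrophage and myeloid markers were below 0, with a median of -0.44, and the array medians ran from -1.80 on array 4 to 0.43 on array 1. Of 8 T and NK lymphocyte markers 7 were below 0 (median -0.17), with -1.19 on array 4 and 0.72 on array 3. Of 5 endothelium markers 4 were below 0 (median -0.26), and all 4 smooth muscle markers were (median -0.22). None of these genes passed an adjusted p of 0.05 in limma, 1 myeloid marker passed the looser rule as lower (5.24% of named genes did), and the lists were not tested. Over the 2404 measured named genes the median was -0.05 and 40.1% were above 0.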
